A study of Caenorhabditis elegans with 2 samples.

Results

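The 8 genes described here encode tubulins of the nematode Caenorhabditis elegans: the α-tubulins tba-1, tba-2, tba-4 and mec-12, the β-tubulins tbb-1, tbb-2 and mec-7, and the γ-tubulin tbg-1. They were picked from the gene family after a peak had been seen at tba-2, so what follows is a description of where regions were listed at these genes, with no test, and the peak at tba-2 is not a finding about the set. They are 8 of 19973 annotated nuclear protein-coding genes and are called the members here. The data are from a chromatin immunoprecipitation and sequencing (ChIP-seq) experiment on the nuclear hormone receptor NHR-12. It used whole L1 larvae, the first larval stage, of strain OP318 with the genotype unc-119(ed3) III; wgIs318, in which NHR-12 carries GFP and FLAG at its C-terminus. Male and female animals were pooled, and the series holds 1 group of 2 biological replicates, with no second condition. Every library came from the same transgenic strain, and the 1 control file used in calling regions was not analysed here.

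Microtubules are polymers of α- and β-tubulin, which pair as a dimer before they assemble, while γ-tubulin starts new microtubules at centrosomes. In C. elegans tba-1, tba-2, tbb-1 and tbb-2 supply the spindle of the early embryo, and mec-12 and mec-7 form the wide microtubules of the touch receptor neurons, a small group of cells that sense gentle touch. Of the 8 genes, 6 carry the working name of broadly expressed tubulins, and mec-7 and mec-12 stand beside them as genes of a restricted cell type. Expression was not measured in these data and the larvae were whole, so these labels could not be checked.

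Regions are given by signal, a value that came from the peak caller and has no stated scale, and by rank within 1 list (rank 1 is the highest signal). The authors deposited a list for each replicate (26878 regions for replicate 1 and 30000 for replicate 2), a joint list called on both replicates together (3817 regions), and the 164 regions of the joint list that passed their irreproducible discovery rate threshold, called the IDR set. The replicate and joint lists held background regions as well as peaks, so a low rank in them says little. Read depth was unknown. A region was placed by its midpoint, and its promoter window took in 500 bp before and 200 bp after the annotated 5′ end of a gene. Coordinates are ce11.

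At tba-2 (WBGene00006529, chromosome I, 12964674 to 12966795, minus strand) a strong region stood in front of the gene in every list. The IDR peak lay at 12966749 to 12967124, with its midpoint 142 bp upstream of the 5′ end and a signal of 62.9. It ranked 51 of 164 in the IDR set and 51 of 3817 in the joint list. Replicate 1 listed a region there with a signal of 26.9 at rank 64, and replicate 2 a region with a signal of 35.6 at rank 39. These places are in the top 0.238% of the replicate 1 list and the top 0.130% of the replicate 2 list. The midpoints of the 2 replicates were 26 bp apart, and those of replicates 1 and 2 were 13 and 39 bp from the joint midpoint. The authors' −log10 q-value at tba-2 was the highest of its list in each case, a value it shared with other regions (2.23 in replicate 2, which 253 regions reached). As q-values these were 0.0827 in the joint list and the IDR set, 0.0845 in replicate 1 and 0.00594 in replicate 2. All 164 regions of the IDR set had the same q-value.

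The tba-2 peak lay in the promoter window of no other protein-coding gene. Of the 146 nuclear IDR peaks 56 lay in exactly 1 promoter window, and the others in none or in several. The tba-2 peak was intergenic at its midpoint, and 47 bp of it lay inside tba-2. A gap of 91 bp separated it from the 3′ end of pbs-2, a proteasome subunit gene 420 bp upstream of tba-2 on the same strand. Among the 102 protein-coding genes with an IDR peak in the promoter window tba-2 ranked 15 by signal, and its peak ranked 36 among the nuclear IDR peaks. A region of each replicate stood within 100 bp of 140 nuclear IDR peaks. At 27 of these 140, tba-2 included, the poorer of the 2 replicate ranks was 64 or better. Over the 102 pairs of an IDR peak and a gene, the median midpoint was 207 bp upstream of the 5′ end, and 57.8% of midpoints were within 250 bp upstream, as at tba-2.

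The IDR peaks nearest to tba-2 in signal were of several kinds. Just above it ranked intergenic peaks on chromosomes X, III and X with signals of 64.0, 63.4 and 63.2, whose nearest genes by 5′ end were xol-1, F43C1.7 and F19H6.5. Just below it ranked the peak 195 bp upstream of the histone gene his-37 (62.7), a peak in a coding exon of pks-1 (62.6) and a peak in an intron of the dynein heavy chain gene dhc-4 (61.8). At all 6 of these both replicates listed a region, with ranks from 34 to 289 in replicate 1 and from 17 to 147 in replicate 2. Of these 6 neighbours only that of his-37 was in a promoter window.

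**Figure D1:**
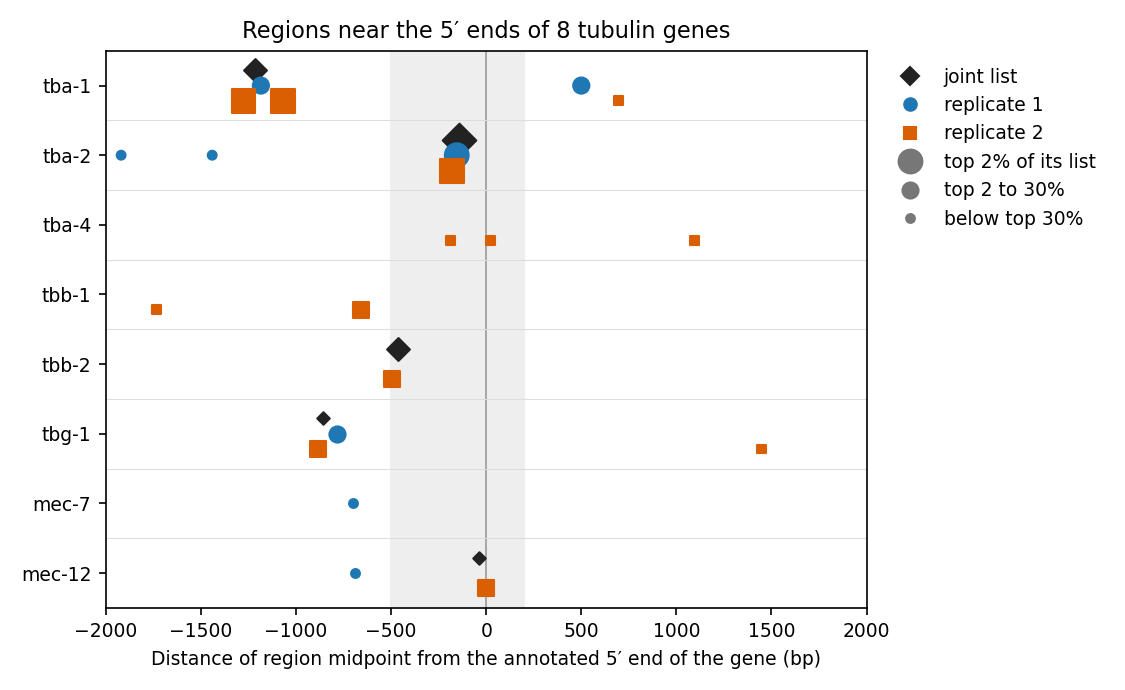
Regions within 2000 bp of the 5′ end of each tubulin gene. The x axis is the distance of the region's midpoint from the 5′ end in bp (negative is upstream), rows are genes, the shaded band is the promoter window, colour and shape give the list, and marker size gives the place of the region within its list. At tba-2 the joint, replicate 1 and replicate 2 regions coincide at 142, 155 and 181 bp upstream. In the other rows no promoter window holds a replicate 1 region.

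The other 2 promoter regions of the joint list, at tbb-2 and mec-12, were weak. At tbb-2 (WBGene00006537, chromosome III, 4015910 to 4017627, minus strand), the other β-tubulin of the embryonic spindle beside tbb-1, the joint list held a region at 4017905 to 4018280 with a signal of 21.8, rank 1101 of 3817. Its midpoint was 466 bp upstream, close to the window's edge. Replicate 2 listed a region 497 bp upstream with a signal of 8.30, rank 8761 of 30000, and replicate 1 listed none in the window, its nearest being 2763 bp upstream at rank 16542. The authors' q-values were 0.652 in the joint list and 0.629 in replicate 2. The tbb-2 region was thus listed by replicate 2 and the joint call and not by replicate 1. Its replicate 2 midpoint lay inside C36E8.10, an annotated non-coding RNA gene, and its joint midpoint was intergenic. Which of the 2 genes the region belongs to was not tested.

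The central 201 bases of the joint tbb-2 region, chrIII:4017993-4018193, are shown on the strand of the gene as the strongest joint promoter region of a β-tubulin. They run from 566 to 366 bases upstream and contain none of the 4 patterns searched below, so no base is in capitals.
tbb-2: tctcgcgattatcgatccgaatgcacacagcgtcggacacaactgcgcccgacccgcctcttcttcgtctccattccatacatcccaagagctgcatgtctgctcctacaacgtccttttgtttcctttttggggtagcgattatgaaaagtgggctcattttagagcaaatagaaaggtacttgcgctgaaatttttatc

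At mec-12 (WBGene00003175, chromosome III, 3131574 to 3139234, minus strand), the touch neuron α-tubulin, the joint list held a region at 3139084 to 3139459 with its midpoint 38 bp upstream of the 5′ end. Its signal was 18.6, rank 2532 of 3817, with a q-value of 0.915. Replicate 2 listed a region over the 5′ end itself with a signal of 10.2, rank 3770 of 30000 and a q-value of 0.429. The nearest region of replicate 1 was 689 bp upstream, outside the window, with a signal of 8.77 at rank 10238. In replicate 2 the mec-12 region ranked above that of tbb-2, and in the joint list below it, so the order of these weak regions differed between lists. A touch neuron gene was thus among the 3 members with a joint promoter region.

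The upstream part of the mec-12 region, chrIII:3139235-3139459, is shown on the strand of the gene, from 225 bases upstream to the last base before the annotated 5′ end. Capitals mark GAGAGA, 26 bases upstream.
mec-12: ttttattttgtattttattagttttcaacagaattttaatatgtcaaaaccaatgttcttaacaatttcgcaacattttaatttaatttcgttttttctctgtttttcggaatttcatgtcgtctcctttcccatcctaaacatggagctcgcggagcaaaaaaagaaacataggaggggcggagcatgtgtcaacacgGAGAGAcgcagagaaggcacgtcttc

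The α-tubulin tba-4 (WBGene00006530, chromosome II, 10918706 to 10920211, plus strand) had promoter regions in replicate 2 alone. They lay 187 bp upstream, with a signal of 8.05 at rank 9765, and 21 bp downstream of the 5′ end, with a signal of 6.73 at rank 16532. These regions overlap each other and stood in the top 32.5% and the top 55.1% of the replicate 2 list. Replicate 1 and the joint list had their nearest region 5741 bp downstream, at ranks 3197 and 2691.

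The 201 bases around the first of these midpoints, chrII:10918419-10918619, are shown on the strand of the gene as an α-tubulin promoter listed by replicate 2 only. Capitals mark TCTCTC, the reverse complement of GAGAGA, which occurs once 254 bases upstream and again in an overlapping pair around 187 and 185 bases upstream.
tba-4: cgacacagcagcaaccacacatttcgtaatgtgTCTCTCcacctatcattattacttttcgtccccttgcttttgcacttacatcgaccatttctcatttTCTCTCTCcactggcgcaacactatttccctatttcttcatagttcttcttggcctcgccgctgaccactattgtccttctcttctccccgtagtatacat

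The remaining 4 members had no region in the promoter window in any list. At tba-1 (WBGene00006528, chromosome I, 9785781 to 9787624, minus strand), the α-tubulin that works beside tba-2 in the embryo, the nearest joint region was 1214 bp upstream, with a signal of 25.6 at rank 521. That region lay in the promoter window of cox-5B, a cytochrome c oxidase subunit gene on the opposite strand whose 5′ end is 113 bp from the midpoint. Replicate 2 listed regions 1070 and 1277 bp upstream of tba-1 with signals of 18.1 and 15.6 (ranks 265 and 460), and replicate 1 a region 1185 bp upstream with a signal of 9.47 (rank 7812), all within the cox-5B window. The strongest signal near tba-1 was therefore closer to its neighbour.

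At tbg-1 (WBGene00006540, chromosome III, 9626536 to 9629154, minus strand) the regions upstream also belonged by distance to its neighbours. The gene follows rpac-19, an RNA polymerase subunit gene, at a distance of 91 bp, and rpac-19 follows ubc-7, a ubiquitin-conjugating enzyme gene, at 211 bp, all on 1 strand. In C. elegans such closely spaced genes are often an operon, transcribed from a promoter before the first gene, and the annotation used here does not say whether these are. An IDR peak stood 381 bp upstream of ubc-7 and 2394 bp upstream of tbg-1, with a signal of 37.4 at rank 161 of 164, near the bottom of the set. Replicate 1 ranked a region there 398 and replicate 2 ranked one 339. A weaker joint region lay 127 bp upstream of rpac-19 and 858 bp upstream of tbg-1 (19.0, rank 2317), with regions of replicate 1 (12.1, rank 2671) and replicate 2 (12.6, rank 1377) 102 bp apart.

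At tbb-1 (WBGene00006536, chromosome III, 10740868 to 10742432, minus strand), a β-tubulin, the closest region was one of replicate 2, 657 bp upstream inside an intron of rib-2, with a signal of 8.94 at rank 6698. The nearest joint region was an IDR peak of another place, 16839 bp away. At mec-7 (WBGene00003171, chromosome X, 7774856 to 7776689, minus strand), the touch neuron β-tubulin, the only region within 2000 bp of the 5′ end was one of replicate 1, 699 bp upstream inside an intron of ZK154.4, with a signal of 8.66 at rank 10638. The nearest joint region was 15552 bp away. These 2 genes were the farthest from any joint region among the members.

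The 300 bases before mec-7, chrX:7776690-7776989, are shown on the strand of the gene as a touch neuron tubulin promoter with no region in any list. Capitals mark AATGCAT, a heptamer described in promoters of C. elegans touch neuron genes, found on either strand at 2 places (overlapping matches 295 and 294 bases upstream, and a match 129 bases upstream), and TCTCTC at 158 bases upstream.
mec-7: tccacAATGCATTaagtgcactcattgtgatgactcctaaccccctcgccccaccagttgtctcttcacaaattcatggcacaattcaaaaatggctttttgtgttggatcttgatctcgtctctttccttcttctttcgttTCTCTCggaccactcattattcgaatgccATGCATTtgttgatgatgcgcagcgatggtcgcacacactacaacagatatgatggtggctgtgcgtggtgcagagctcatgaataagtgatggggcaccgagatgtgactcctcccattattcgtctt

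Counted over the members, 1 of 8 had a promoter region in the IDR set, against 0.511% of all nuclear protein-coding genes. That gene was tba-2, so this count was set by the choice of the members. The joint list gave 3 of 8 (tba-2, tbb-2 and mec-12), against 4.98% of all genes, and 2 of 7 without tba-2, which was the reason for the choice. Replicate 1 gave 1 of 8 (tba-2 again), against 21.4%, and replicate 2 gave 4 of 8 (tba-2, tba-4, tbb-2 and mec-12), against 24.8%. Regions of both replicates within 100 bp of each other in the window were found at tba-2 only, 1 of 8, against 4.34% of all genes. Of the 6 broadly expressed members 2 had a joint promoter region, and of the 2 touch neuron members 1. The listings outside tba-2 came from replicate 2 and not from replicate 1, and with 8 genes chosen with results known nothing particular to tubulins can be read from these counts.

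**Figure D2:**
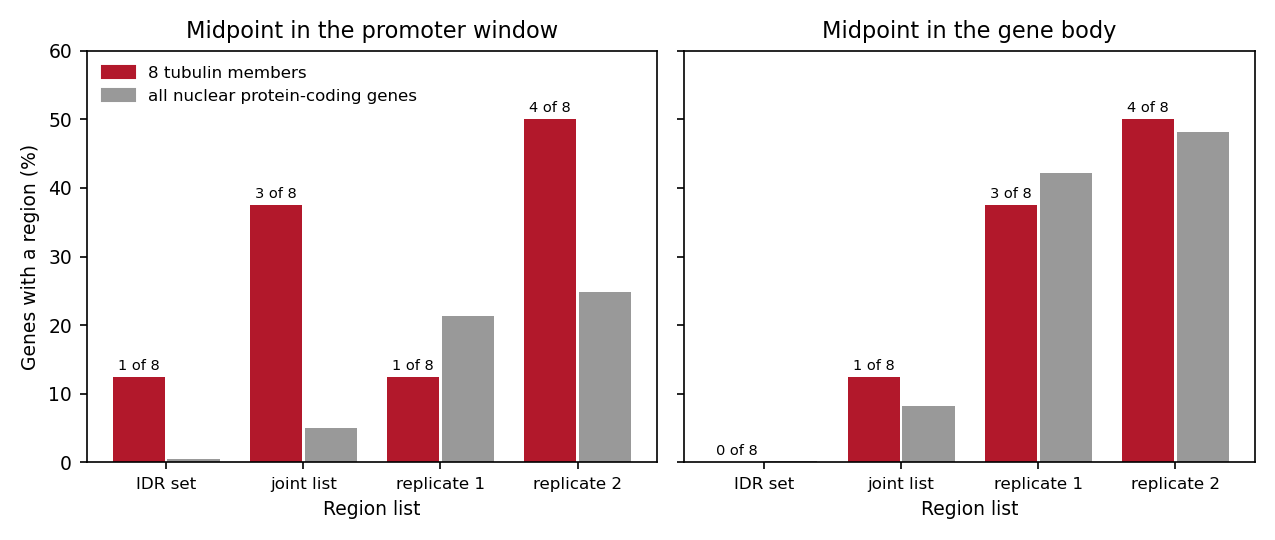
Share of genes with a region in the promoter window (left panel) and in the gene body (right panel), in %, for the 8 tubulin genes (red, left bar of each pair) and for all 19973 nuclear protein-coding genes (grey, right bar), by list. The tubulin bars stand for 1, 3, 1 and 4 genes in promoter windows and for 0, 1, 3 and 4 genes in gene bodies, so a single gene moves a red bar by a large step. All 4 promoter bars include tba-2, the reason for the choice of the genes.

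The median distance from the 5′ end to the nearest joint midpoint was 1036 bp over the 8 members and 10354 bp over all genes, with members ranging from 38 bp at mec-12 to 16839 bp at tbb-1. The members' median includes tba-2 and lies between 858 bp at tbg-1 and 1214 bp at tba-1. Those 2 regions were closer to the neighbours rpac-19 and cox-5B. For replicate 1 the medians were 741 bp over the members and 1191 bp over all genes, and 1773 bp over the 6 broadly expressed members alone. For replicate 2 they were 577 bp over the members, the same over the 6 broadly expressed ones, and 990 bp over all genes. In the IDR set every member but tba-2 and tbg-1 had its nearest peak 16839 bp away or farther. The medians for that set were 107682 bp over the members and 300854 bp over all genes.

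No IDR peak had its midpoint in the body of a member, as for all but 0.160% of genes. The joint list had 1 region in 1 of the 8 bodies, against 8.28% of all genes, in a coding exon of tbg-1 at 9626674 to 9627049, 2292 bp downstream of the 5′ end. Its signal was 20.1 at rank 1685. Replicate 2 listed that place with a signal of 16.7 at rank 361, and replicate 1 listed no region in the body of tbg-1. Replicate 1 had regions in 3 of 8 bodies (tba-1, tba-2 and mec-12), against 42.2% of all genes, and replicate 2 in 4 of 8 (tba-1, tba-4, tbg-1 and mec-12), against 48.2%.

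Per length, the joint list held its 1 region over 20.9 kb of member bodies, or 0.0479 per kb, against 0.0311 per kb over all protein-coding genes. Replicate 1 listed 4 regions there, or 0.192 per kb, against 0.251 per kb. Replicate 2 listed 9 regions, or 0.431 per kb, against 0.289 per kb. In mec-12, by far the longest member at 7661 bp, replicate 1 listed 2 intronic regions at ranks 26795 and 14783, and replicate 2 listed 3 intronic regions at ranks 4103, 26412 and 28670 and the region at the 5′ end. At tba-1 the body regions were 500 bp downstream in replicate 1 (rank 4907) and 696 bp downstream in replicate 2 (rank 25065). At tba-2 the body region of replicate 1 lay in the 3′ UTR (rank 20057), within the promoter window of the next gene, C47B2.2.

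**Figure D3:**
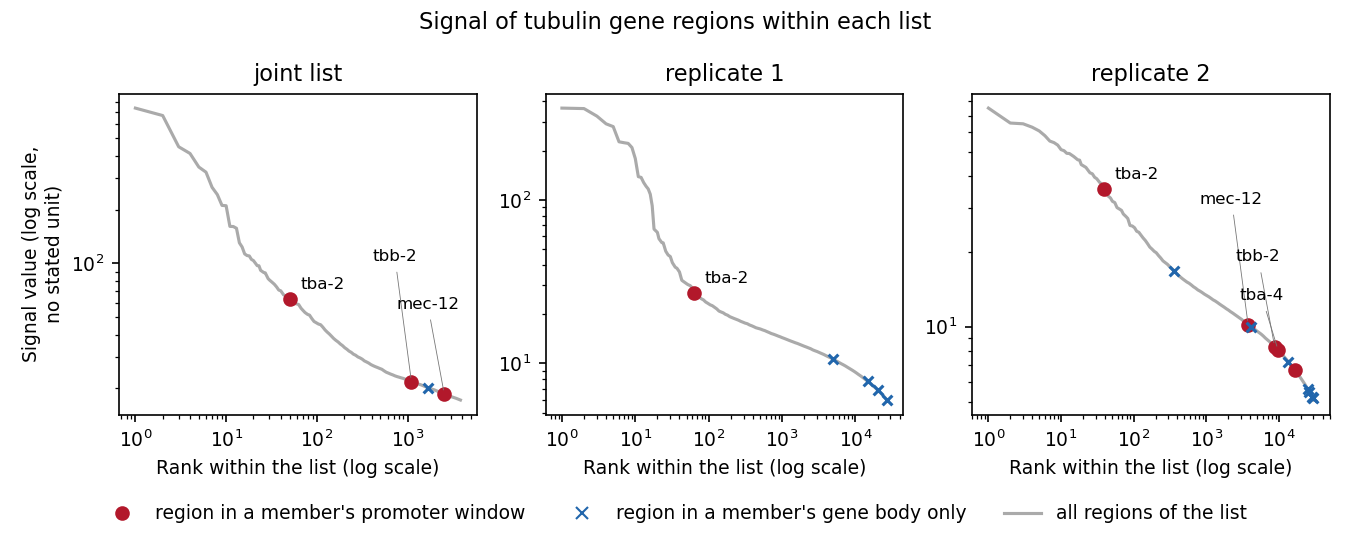
Signal against rank within the joint list, the replicate 1 list and the replicate 2 list, both on log scales. Grey lines are all regions of the list, red points are regions in a member's promoter window and blue crosses are regions in a member's gene body only. The tba-2 point lies high on each curve, at ranks 51, 64 and 39, while the other red points lie at rank 1101 or beyond. The blue cross at rank 361 of replicate 2 is the tbg-1 body region.

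Tubulin genes share coding sequence, and how reads matching several places were treated is not given in the sources used here. The upstream 500 bases of each member held no stretch of 36 bases that occurs again in the nuclear genome. In the gene bodies the share of such stretches ran from 0% in tbb-1, tbg-1 and mec-12 to 2.20% in tbb-2, with tba-4 apart at 19.4%. Those of tba-4 recur mostly in the nearby gene Y19D2B.1, and all but 12 stretches shared with tba-2 fall from 1197 bases downstream of the tba-4 5′ end onward. The upstream midpoints at tba-2, tbb-2, mec-12 and tba-4 were thus in sequence that is unique at this length, and the tba-4 body region of replicate 2, 1096 bp downstream, reaches into the repeated part.

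Base composition and short patterns were described in windows of 201 bases around joint midpoints, on both strands. The GC content was 43.3% at tba-2, 47.3% at tbb-2 and 48.8% at mec-12. The median was 44.3% over the 146 nuclear IDR peaks and 33.3% over the 3798 nuclear joint regions, whose upper quartile was 39.3%. The 3 tubulin regions were therefore richer in GC than most joint regions. The hexamer AGGTCA, the core that many nuclear receptors bind, occurred once at tba-2 and not at tbb-2 or mec-12, and 6.85% of IDR peaks and 4.34% of joint regions held it. GAGAGA occurred once at tba-2 and once at mec-12, and 43.2% of IDR peaks and 15.6% of joint regions held it. The TATA-box hexamer TATAAA occurred in none of the 3 windows, against 14.4% of IDR peaks and 23.4% of joint regions. AATGCAT occurred in none of them either, against 1.37% and 3.11%.

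In the 500 bases upstream of the 5′ end, AGGTCA occurred at tba-2 alone among the 8 members, and in 12.8% of all protein-coding genes. AATGCAT was found upstream of mec-7 and tba-4 and not of mec-12, and in 7.06% of all genes. GAGAGA was found upstream of all members but tbb-1 and tbg-1, and in 30.0% of all genes. TATAAA was found upstream of tba-1, tba-2, tba-4 and tbb-1, and in 54.0% of all genes. A match is not a binding site, and its absence from a window says nothing about the factor.

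Of the other 8 tubulin genes (tba-5, tba-6, tba-7, tba-8, tba-9, tbb-4, tbb-6 and ben-1) none had a promoter region in the IDR set or the joint list. Over all genes the shares were 0.511% and 4.98%, so absence from 8 genes says little. The replicate lists held promoter regions at tba-6 alone. These had a signal of 6.14 at rank 25612 in replicate 1 and 7.79 at rank 10801 in replicate 2. The shares of all genes in these lists were 21.4% and 24.8%. A list of 20 genes for tubulin folding was, like the members, chosen with earlier results of these data known. Of these genes 2 had an IDR peak and 5 a joint region in the window, against 0.511% and 4.98% of all genes. These were led by cct-8 (73.8) and by cct-1 (52.5), which encode parts of the chaperonin that folds tubulin and actin. Next came the prefoldin gene pfd-1 (26.3) and cct-5 (25.4), and each of these 4 regions also lay in the window of another gene. The midpoints at cct-8, cct-1 and pfd-1 were closer to the 5′ end of that other gene, and the midpoint at cct-5 was closer to cct-5. Replicate 1 listed no region in the cct-5 window. The region of the fifth gene, the prefoldin gene pfd-3 (23.7, rank 701), had its midpoint 20 bp upstream of the 5′ end and lay in the window of no other gene. This gene is outside the rule for named genes and was named after its values were seen. None of the 5 tubulin cofactor genes tbca-1 to tbce-1 had a joint region.

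None of the genes in 3 further lists, on the centrosome, on microtubule binding and severing and on tubulin modification, had an IDR peak in the promoter window. The counts of joint regions in these lists and among touch neuron genes stand against 4.98% of all genes. Of 11 genes of the γ-tubulin complex and centrosome 1 had a joint region, the centriole assembly gene sas-6 (22.5, shared with Y45F10D.7). Of 12 genes for microtubule binding and severing 2 had one, the kinesin heavy chain gene unc-116 (25.0) and the spastin gene spas-1 (18.2). Of 10 genes for tubulin modification 1 had one, the tyrosine ligase-like gene ttll-11 (21.9). At sas-6, unc-116 and ttll-11 both replicates listed a region in the window, with better ranks in replicate 1 than in replicate 2 (3233 and 6612, 691 and 8276, 1027 and 14634). At spas-1 both replicates listed one too, with the better rank in replicate 2 (2696, against 4670 in replicate 1). Of 10 touch receptor neuron genes, among them the channel gene mec-4 and the regulators mec-3 and unc-86, none had a joint region.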

How the data were processed

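NHR-12 ChIP-seq of 2 biological replicates was used. Per the deposited file descriptions, the authors called regions with 1 control file for each replicate and for both together, as input for the irreproducible discovery rate step, in ce11. Their caller, its version and the threshold are not given in the sources used here. Signal and −log10 q-values are the authors' deposited values, with no stated scale for the signal, and were compared within a list only. The ce10 lists were not used. Positions were compared with the Ensembl release 115 annotation of WBcel235, the assembly of ce11, and bases were read from RefSeq's copy of it. Midpoints were assigned to windows with pandas 2.3.3 and numpy 2.4.6 (Python 3.11.15), and figures were drawn with matplotlib 3.10.9. The assignment was tested on planted positions. The members, gene lists, patterns and windows were chosen with earlier results of these data known. All 8 members are named. From the other lists those with an IDR peak, and up to 4 of highest joint signal, are named, as are the 3 IDR peaks on each side of tba-2 by rank. The alternatives tried were other windows, overlap in place of midpoints, other match distances, stricter lists and each replicate alone. With 1 group there was no comparison between groups, and read depth was unknown, so no interval or p-value is given.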

Additional observations from a re-analysis of the deposited data

How the results depend on the processing

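The count of 3 members with a joint promoter region was 2 with a limit of 250 bp upstream (tba-2 and mec-12), 4 with 1000 bp (with tbg-1), and 1 in the IDR set (tba-2). The shares of all genes at these settings were 3.04%, 7.02% and 0.511%, against 4.98% at the main setting. With 1 replicate left out, using as many of the strongest regions of the remaining replicate as the joint list holds, the count was 1 to 2: tba-2 alone from replicate 1, and tba-2 with mec-12 from replicate 2. The shares of all genes were then 4.32% from replicate 1 and 4.84% from replicate 2. The single member with a joint gene-body region became 3 with any overlap (tba-2, tbg-1 and mec-12), 0 in the IDR set, and 0 to 2 with 1 replicate left out. The share of all genes was 8.28% at the main setting, 10.8% with any overlap and 0.160% in the IDR set. With 1 replicate left out that share was 8.61% to 8.84%. Leaving out a replicate put the tba-2 region in the top 0.130% to 0.238% of a list, against the top 1.34% of the joint list, which is shorter. tba-2 was the only member with regions of both replicates in the promoter window under each match setting (50 and 200 bp, any overlap, strongest regions only). In the same order the shares of all genes were 2.78%, 6.11%, 7.49% and 0.941%. No paired analysis was possible because there is 1 group. The unknown depth limits every absence to these lists.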
